A study of Mus musculus with 8 samples.

Results

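Aminoacyl-tRNA synthetases were examined in regulatory T cells with and without Raptor. The set was the 36 mouse genes whose symbols name a cytosolic enzyme (20 genes) or a mitochondrial enzyme (16 genes) that attaches an amino acid to its tRNA, looked up by gene symbol on the array. Of the 36, 32 were found among the 17097 genes with a probe set of their own, 17 cytosolic and 15 mitochondrial; Cars, Dars, Tars and Yars2 were not analysed here. Each gene was read from its brightest probe set, and 31 of the 32 were bright enough to be tested among 11413 genes.

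The study compared 2 genotypes of mice on the C57Bl/6J background, with 4 arrays each. WT is given no further allele in the labels, so whether those mice carried Cre or a floxed allele is not known. RaptorKO mice carry Cre driven by Cd4 together with 2 floxed copies of Raptor, which is the gene Rptor. A Cd4-driven Cre acts in developing T cells at large, so the deletion is not limited to regulatory T cells. Cells from spleen and peripheral lymph nodes were sorted as CD4+CD25+, left untreated, and their RNA was amplified and hybridised to 1 array per sample. No label tells if the 4 samples of a genotype are from different mice; a p-value here reflects how much these samples vary, and part of that can be technical.

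Cytosolic synthetases supply the charged tRNAs for translation in the cytoplasm, and a separate set of nuclear genes supplies those for the mitochondrial ribosome. Several cytosolic enzymes are held in 1 large complex by scaffold proteins. Uncharged tRNA is sensed by the kinase Gcn2, which raises translation of the transcription factor ATF4. ATF4 is known to drive many cytosolic synthetase genes, and mTORC1, the kinase complex that Raptor defines, is known to raise ATF4 as well.

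Promoter sequences are shown because they bear on the link to ATF4, and the letters themselves do not depend on the arrays. RefSeq promoters (build GRCm38.p6, 250 bases before to 50 bases after the annotated start) were matched by symbol. Those of 11 of the 17 cytosolic and 13 of the 15 mitochondrial genes were searched. Members on 1 chromosome were left out by rule, so a gene not searched may still have a promoter in RefSeq. The count over all promoters had no such rule. Both strands were searched for TGATGNAAN, the composite element that ATF4 binds with C/EBP partners. They were also searched for TGACG, the core of the cyclic AMP response element. In the members, matches of one motif did not overlap matches of the other. TGATGNAAN was present in 4 of 11 cytosolic promoters (36.4%: Aars, Gars, Iars and Yars), in 0 of 13 mitochondrial promoters and in 4.5% of all 27025 promoters. TGACG was present in 4 of 11 cytosolic promoters (36.4%: Eprs, Farsb, Mars and Yars), in 5 of 13 mitochondrial promoters (38.5%) and in 23.0% of all. A match is a run of letters and not a shown binding site. The 250 bases before the start of Aars, on the plus strand at chr8:111033592-111033841, hold 1 match at 113 bases before the start. Aars is shown at this length because, of the 4 genes with a TGATGNAAN match, it had the smallest p-value on the arrays. The bases in capitals mark the TGATGNAAN match in each sequence that follows.
Aars upstream: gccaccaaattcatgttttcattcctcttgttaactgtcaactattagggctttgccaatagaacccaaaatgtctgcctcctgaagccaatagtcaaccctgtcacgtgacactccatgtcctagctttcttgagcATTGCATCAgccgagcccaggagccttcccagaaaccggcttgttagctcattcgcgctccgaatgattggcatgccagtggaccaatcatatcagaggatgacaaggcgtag

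The other matches lie close to the start of their genes, and 30 bases around each are shown, all on the plus strand of GRCm38.p6. They are the second match of Aars (chr8:111033839-111033868), and those of Iars (chr13:49682125-49682154), Gars (chr6:55037959-55037988) and Yars (chr4:129189895-129189924). The match of Yars lies on the strand of its gene, and the others lie on the opposite strand.
Aars start: tagcgggtcacTTTTCATCAgagcgctctg
Iars start: gcactgtcagtATTGCATCAcctccagacg
Gars start: ctggctgcgctATTTCATCAtgcaccgggc
Yars start: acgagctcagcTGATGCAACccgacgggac

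No synthetase passed the test in RaptorKO against WT. The values are log2 intensities, a difference is RaptorKO minus WT on that scale, and the test was limma with p-values adjusted over all 11413 genes by the method of Benjamini and Hochberg, with 0.05 as the threshold. Of the 31 tested members 0 were called, against 1.96% of all genes (224, of which 94 were higher and 130 lower). At an unadjusted p under 0.05 there were 3 members with a lower mean in RaptorKO, Aars, Wars and Hars, all cytosolic, and 0 with a higher mean. The background at that level was 7.49% of all genes lower and 5.55% higher, so 3 of 31 is a share near the background. The cytosolic enzymes had a median difference of -0.042, with 10 of 17 below 0 and a range from -0.52 to 0.19. The mitochondrial enzymes had a median of 0.039, with 6 of 14 below 0 and a range from -0.20 to 0.38. Over all genes tested the median was -0.009, with 52.4% below 0. The class medians lay on opposite sides of 0 also after quantile normalization (-0.021 and 0.045) and after centring each array on its 75th percentile (-0.03 and 0.051). They lay on the same side without WT 2 (-0.113 and -0.008), without RaptorKO 3 (0.029 and 0.022), within replicates 1 and 2 (0.083 and 0.102) and within replicates 3 and 4 (-0.195 and -0.007).

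**Figure D1:**
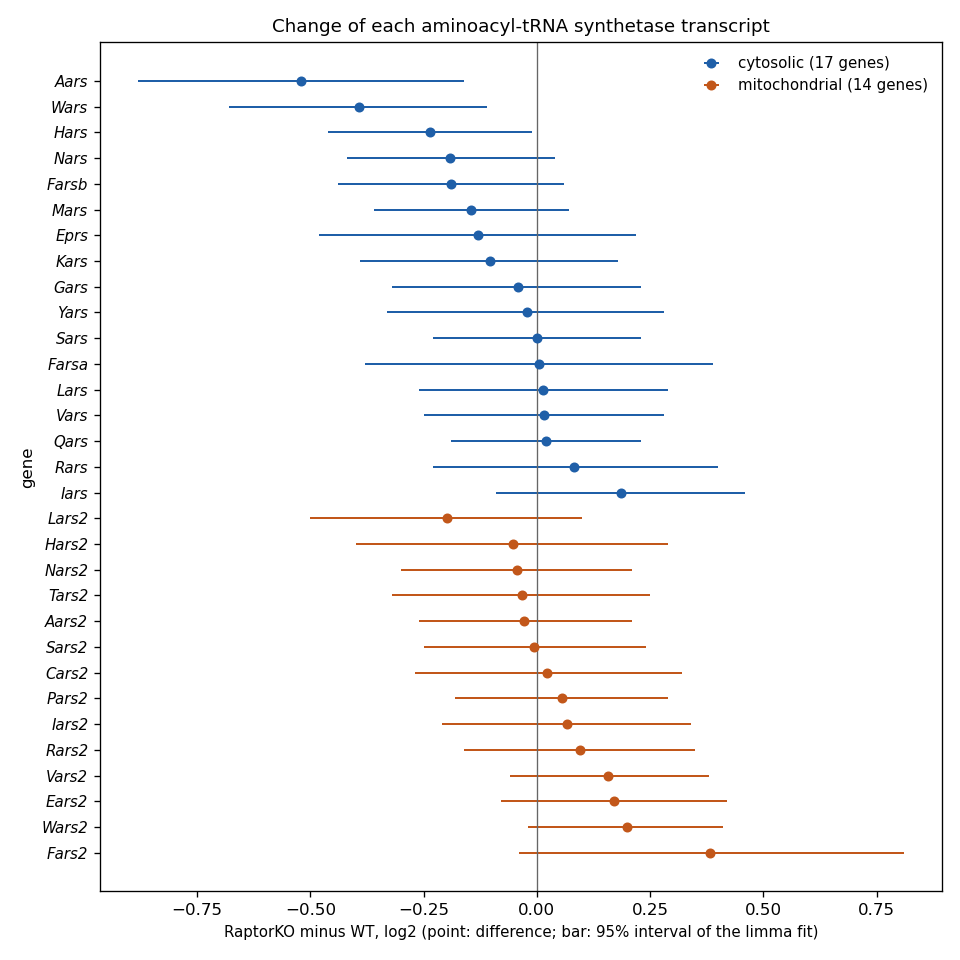
Difference between RaptorKO and WT (log2, horizontal axis) for each of the 31 tested synthetases, with cytosolic genes in blue above and mitochondrial genes in orange below; points are differences and bars are 95% intervals of the limma fit. The bars of Aars, Wars and Hars lie below 0 and every other bar crosses 0, before any adjustment for the number of genes tested.

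Among the cytosolic enzymes, Aars, which charges alanine tRNA, showed the lowest difference of all 31 members. It read 7.38, 7.41, 7.59 and 7.35 on WT arrays 1 to 4 and 7.06, 7.36, 6.69 and 6.53 on RaptorKO arrays 1 to 4. RaptorKO 3 and RaptorKO 4 lay far below every WT array, while RaptorKO 2 lay within the WT range, so the groups overlapped. The means were 7.43 ± 0.11 (SD, n = 4) and 6.91 ± 0.37, a difference of -0.52 (SE 0.16, 95% interval -0.88 to -0.16), or 1.43-fold lower. Its unadjusted p was 0.0081 and its adjusted p was 0.16 in limma. Without RaptorKO 2 the difference was -0.67 and was called (adjusted p = 0.0313). A second, dimmer Aars probe set had groups that did not overlap and a difference of -0.38 (SE 0.12, adjusted p = 0.182 with every probe set tested).

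Wars, the tryptophan enzyme and a gene known to respond to interferon, had the next lowest value. On the WT arrays 1 to 4 it read 8.37, 7.89, 8.49 and 8.33, and on the RaptorKO arrays 7.89, 7.99, 7.81 and 7.82. WT 2 sat among the RaptorKO arrays, and the other 3 WT arrays lay above all of them. The difference was -0.39 (SE 0.13, adjusted p = 0.188), and without WT 2 it was -0.52 and was called (adjusted p = 0.04). Its 2 dimmer probe sets differed by -0.18 and 0.00, so they did not share the size of the first.

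Hars, the histidine enzyme, is 1 of 2 tested cytosolic genes whose groups did not overlap. Its values were 7.86, 7.85, 8.06 and 8.08 in WT and 7.66, 7.83, 7.62 and 7.80 in RaptorKO, in replicate order. The gap between the groups was only that between WT 2 at 7.85 and RaptorKO 2 at 7.83. The difference was -0.236 (SE 0.10, adjusted p = 0.358). Farsb, the beta subunit of the phenylalanine enzyme, was the other, with 7.29, 7.23, 7.24 and 7.65 in WT and 7.09, 7.18, 7.21 and 7.17 in RaptorKO. WT 4 stood above the rest, and the remaining WT arrays lay just above RaptorKO, a difference of -0.189 (SE 0.11, adjusted p = 0.547). Over all genes 5.09% had groups that did not overlap with RaptorKO lower, and 3.73% with RaptorKO higher. The alpha subunit, Farsa, differed by 0.004 (SE 0.18), with values from 6.83 to 7.39 in WT and from 6.71 to 7.48 in RaptorKO.

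Nars, the asparagine enzyme, read 8.41, 8.27, 8.40 and 8.30 in WT and 8.32, 7.98, 8.24 and 8.08 in RaptorKO. RaptorKO 1 lay inside the WT range and the other 3 RaptorKO arrays below it, a difference of -0.192 (SE 0.10, adjusted p = 0.495). Mars, the methionine enzyme, which charges both initiator and elongator tRNA, read 8.41, 8.29, 8.19 and 8.26 in WT and 8.01, 8.21, 8.25 and 8.10 in RaptorKO. Its groups overlapped and the difference was -0.145 (SE 0.10, adjusted p = 0.626). Iars, the isoleucine enzyme, had the highest cytosolic difference, 0.185 (SE 0.12, adjusted p = 0.614). It read 8.63, 8.39, 8.48 and 8.76 in WT and 8.77, 8.96, 8.49 and 8.79 in RaptorKO, with RaptorKO 3 inside the WT range. Its dimmer probe set differed by -0.05, so its probe sets had opposite signs.

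Eprs joins the glutamate and proline enzymes in 1 protein. Its values were 8.59, 8.05, 8.64 and 8.57 in WT and 8.42, 8.60, 8.34 and 7.98 in RaptorKO. WT 2 and RaptorKO 4 were the low arrays, 1 in each group, and the difference of -0.129 (SE 0.16, adjusted p = 0.834) was within the spread. Kars, a single gene that makes both the cytosolic and the mitochondrial lysine enzyme, read 7.41, 7.30, 7.39 and 7.58 in WT and 7.18, 7.69, 7.21 and 7.18 in RaptorKO. RaptorKO 2 was the highest of the 8 arrays and the other 3 RaptorKO arrays were the lowest, a difference of -0.104 (SE 0.13, adjusted p = 0.837). Qars, the glutamine enzyme of the cytosol, read 9.18, 9.13, 9.26 and 9.30 in WT and 9.20, 9.36, 9.13 and 9.26 in RaptorKO. Its groups lay over each other, with a difference of 0.021 (95% interval -0.19 to 0.23, adjusted p = 0.961).

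The remaining cytosolic enzymes differed by 0.082 or less in either direction. Gars, another gene that serves both compartments, differed by -0.042 and the tyrosine gene Yars by -0.021. Lars differed by 0.013, Rars by 0.082, Vars by 0.015 and Sars by 0.0 (limma, unadjusted p from 0.583 for Rars to 1.0 for Sars). The 95% interval of Sars ran from -0.23 to 0.23 and that of Yars from -0.33 to 0.28, and differences within those limits are compatible with these arrays. The 4 searched genes with a TGATGNAAN match, shown above, had differences of -0.52 for Aars, -0.04 for Gars, 0.19 for Iars and -0.02 for Yars, and so shared no direction.

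**Figure D2:**
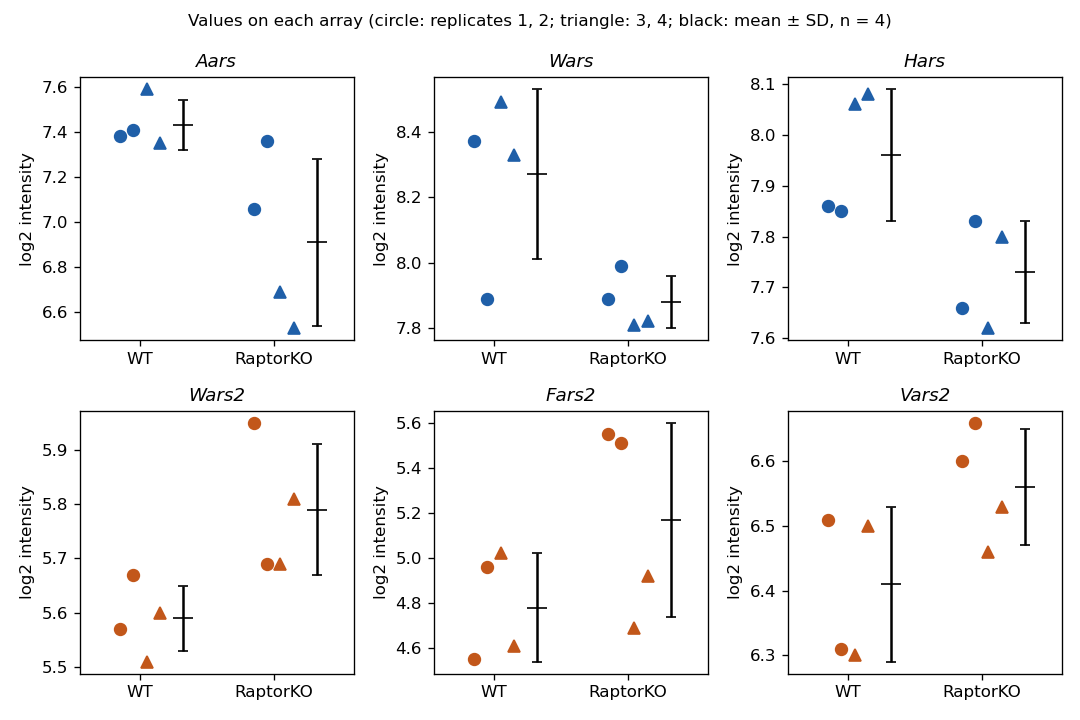
Log2 intensity on each array for 3 cytosolic genes (blue, top row) and 3 mitochondrial genes (orange, bottom row); circles are replicates 1 and 2, triangles are replicates 3 and 4, and black bars are the mean ± SD of 4 arrays. Each panel has its own vertical scale. Triangles of RaptorKO sit lowest for Aars at 6.69 and 6.53, while circles of RaptorKO sit highest for Fars2 at 5.55 and 5.51.

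Among the mitochondrial enzymes, Wars2, which charges tryptophan tRNA, had groups that did not overlap. It was the only 1 of 31 tested members to do so with RaptorKO higher, a share near the 3.73% of all genes. It read 5.57, 5.67, 5.51 and 5.60 in WT and 5.95, 5.69, 5.69 and 5.81 in RaptorKO. Every RaptorKO array was above every WT array, the closest being WT 2 and RaptorKO 2 and 3. The difference was 0.199 (SE 0.10, 95% interval -0.02 to 0.41, adjusted p = 0.433). Its dimmer probe set differed by 0.30 with overlapping groups (limma over all probe sets, unadjusted p = 0.0963).

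Fars2, the mitochondrial phenylalanine enzyme, had the largest difference of the class and a signal close to the filter. It read 4.55, 4.96, 5.02 and 4.61 in WT and 5.55, 5.51, 4.69 and 4.92 in RaptorKO, where the filter for testing lay between 4.69 and 4.81. RaptorKO 1 and 2 were well above all WT arrays and RaptorKO 3 and 4 were among them. The difference was 0.382 (SE 0.19, adjusted p = 0.449). Vars2, the valine enzyme, read 6.51, 6.31, 6.30 and 6.50 in WT and 6.60, 6.66, 6.46 and 6.53 in RaptorKO. RaptorKO 3 alone fell within the WT range, and the difference was 0.157 (SE 0.10, adjusted p = 0.58).

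Ears2, the glutamate enzyme that also charges the mitochondrial glutamine tRNA before its amino acid is converted, read 6.50, 6.07, 6.40 and 6.23 in WT and 6.56, 6.52, 6.50 and 6.32 in RaptorKO. The groups overlapped, with RaptorKO 4 inside the WT range and a difference of 0.171 (SE 0.11, adjusted p = 0.616). Lars2, the leucine enzyme, had the lowest mitochondrial value, with 6.61, 6.30, 6.87 and 6.52 in WT and 6.50, 6.55, 6.32 and 6.13 in RaptorKO. WT 2 lay below 3 of the RaptorKO arrays, and the difference was -0.198 (SE 0.14, adjusted p = 0.629). The other 9 tested mitochondrial genes ranged from -0.053 for Hars2 to 0.096 for Rars2. Between these lay Nars2 at -0.044, Tars2 at -0.032, Aars2 at -0.029, Sars2 at -0.007, Cars2 at 0.023, Pars2 at 0.056 and Iars2 at 0.067. Mars2 was too dim to test, with 3.24 to 4.28 in WT and 3.40 to 4.30 in RaptorKO.

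For 9 amino acids a cytosolic gene and the mitochondrial gene of the same symbol with the suffix 2 were both tested, and the cytosolic difference was the lower one in 6 of them. Among these 9 pairs the widest gaps were for tryptophan, -0.39 for Wars against 0.20 for Wars2, and for alanine, -0.52 for Aars against -0.03 for Aars2. Leucine ran the other way, with 0.01 for Lars and -0.20 for Lars2. For the amino acids whose enzymes do not pair by symbol, the cytosolic value was the lower one each time. For phenylalanine the subunits Farsa and Farsb differed by 0.004 and -0.189, and Fars2 by 0.382. Eprs, which serves both glutamate and proline, differed by -0.129, against 0.171 for Ears2 and 0.056 for Pars2. The difference between the enzymes of an amino acid was not tested.

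Probe sets of 1 gene did not always share a sign. In 8 of the 15 members with at least 2 probe sets bright enough to test, the differences of a gene's probe sets had the same sign after rounding to 2 decimals. Wars and Sars each had a probe set that rounded to 0.0, which was counted as a different sign. Aars (-0.52 and -0.38) and Nars (-0.19 and -0.17) were alike in size, as were Ears2 (0.17 and 0.14) and Wars2 (0.20 and 0.30). For Farsb the 3 probe sets differed by -0.19, 0.02 and -0.33, the last with an unadjusted p of 0.0149 and an adjusted p of 0.22 in limma over all probe sets.

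The replicates fell into separate sets that the labels do not mention. Xist, the transcript of the inactive X chromosome, read 10.88 to 11.18 on replicates 1 and 2 of both genotypes and 5.04 to 5.62 on replicates 3 and 4. The Y-linked gene Kdm5d ran the opposite way, from 3.74 to 4.39 and from 8.22 to 8.51. The sets hold both genotypes, so each gives its own value, with 2 arrays against 2.

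Within replicates 1 and 2, 6 of 17 cytosolic synthetases were lower in RaptorKO, with a median difference of 0.083; within replicates 3 and 4 it was 16 of 17, with a median of -0.195. Over all genes 46.4% and 56.7% were lower, with medians of 0.021 and -0.041. For the mitochondrial enzymes the counts were 4 and 8 of 14, and the medians 0.102 and -0.007. Aars differed by -0.18 in replicates 1 and 2 and by -0.86 in replicates 3 and 4. Wars differed by -0.19 and -0.60, Hars by -0.11 and -0.37, Eprs by 0.19 and -0.44, Lars2 by 0.07 and -0.47, and Fars2 by 0.78 and -0.01. Nars (-0.19 and -0.19) and Wars2 (0.20 and 0.20) were the same in both sets.

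The difference between the sets was tested as an interaction in limma over all genes, and 0 members were called. At an unadjusted p under 0.05 there were 4, Aars (-0.68, SE 0.22, adjusted p = 0.346), Fars2 (-0.79, adjusted p = 0.361), and Eprs and Lars2 (-0.63 and -0.54, each with an adjusted p of 0.431). All 4 were lower in replicates 3 and 4, against 7.83% of all genes. In other scalings the count did not hold, and the direction held only after centring each array on its median. After that centring 1 cytosolic and 1 mitochondrial gene were lower and 0 higher at that level, with 810 of all genes lower and 468 higher. After centring on the 75th percentile 1 cytosolic gene was lower and 2 mitochondrial genes were higher at that level, with 324 of all genes lower and 1149 higher. After quantile normalization 1 cytosolic gene was lower, and of the mitochondrial genes 1 was lower and 1 higher. The median interaction was -0.33 for the cytosolic genes (16 of 17 below 0), -0.141 for the mitochondrial genes (11 of 14) and -0.0914 for all genes (61.1%). With the 60th percentile filter, which all 17 cytosolic genes passed, the median of all genes was -0.161 (71.9% below 0). The cytosolic median there was -0.33, and that of the 11 mitochondrial genes left was -0.156 (8 below 0). Without a filter all genes stood at -0.00964 (51.2%), so the gap to all genes depended on the filter. With an array left out the cytosolic median ranged from -0.429 without RaptorKO 1 to -0.166 without RaptorKO 3, and it was -0.175 without RaptorKO 2 and -0.196 without WT 2. The mitochondrial median ranged from -0.214 without WT 3 to -0.0703 without WT 2, and it was -0.073 without WT 4. Medians and sign counts also depended on how the arrays were scaled. After quantile normalization the medians were -0.141 (13 of 17), -0.00532 (8 of 14) and 0.0238 for all genes; after centring on the 75th percentile they were -0.138 (12 of 17), 0.0503 (6 of 14) and 0.1. The count of lower cytosolic genes within replicates 3 and 4 was then 11 of 17 and 10 of 17, in place of 16, while all genes stood at 45.5% and 39.1%. After centring on the median the median interactions were -0.314 (15 of 17), -0.126 (10 of 14) and -0.076 for all genes. There the count of lower cytosolic genes within replicates 3 and 4 stayed at 16 of 17, with 56.1% of all genes. The cytosolic and the mitochondrial medians both stayed below that of all genes in each of these scalings.

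**Figure D3:**
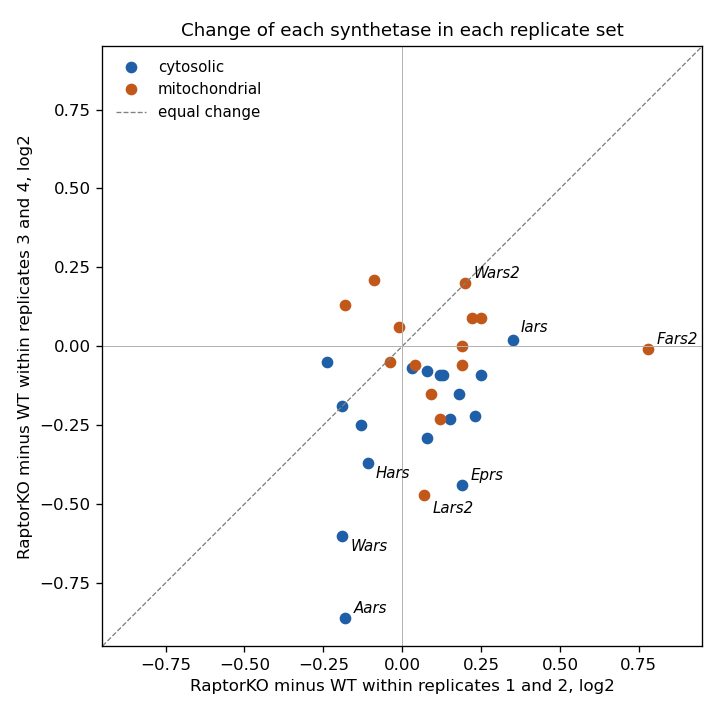
Difference between RaptorKO and WT (log2) within replicates 1 and 2 (horizontal axis) and within replicates 3 and 4 (vertical axis), 2 arrays against 2 each, for the 31 tested synthetases; the dashed line marks equal differences. Of the cytosolic points (blue), 16 of 17 lie below 0 on the vertical axis and 6 of 17 on the horizontal axis, with Aars lowest at -0.86.

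**Figure D4:**
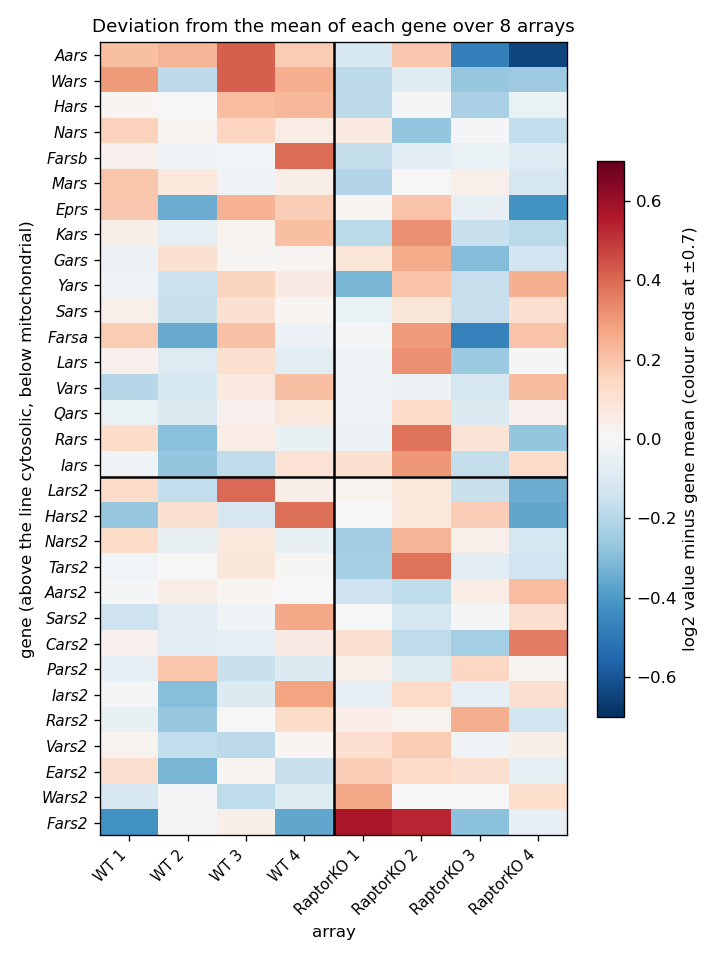
Deviation of each array from the mean of that gene over the 8 arrays (log2, colour), for the 31 tested synthetases in rows and the arrays in columns, with lines between the enzyme classes and between the genotypes. Red is above and blue below the gene's mean. The cytosolic rows are mostly red on RaptorKO 2 (median 0.19) and mostly blue on RaptorKO 3 (median -0.16), while the mitochondrial rows have array medians from -0.06 to 0.07.

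By array, the median deviation of the 17 cytosolic genes from their own 8-array means was 0.04, -0.10, 0.11 and 0.07 in WT and -0.04, 0.19, -0.16 and -0.08 in RaptorKO. WT 2 was thus the low WT array and RaptorKO 2 the high RaptorKO array, and these are the arrays whose removal led to the calls of Wars and Aars. Over all genes tested the medians lay between -0.05 and 0.05, with RaptorKO 2 the highest and RaptorKO 3 the lowest there too. Without RaptorKO 2 the cytosolic median was -0.134, and without RaptorKO 3 it was 0.029.

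Genes that work beside the synthetases were read from further lists. Of the 3 scaffolds of the multisynthetase complex, 0 were called. Aimp2 had 7.29, 7.21, 7.39 and 7.29 in WT and 6.87, 7.29, 6.90 and 7.0 in RaptorKO; only RaptorKO 2 reached the WT range, and the difference was -0.279 (SE 0.11, unadjusted p = 0.0288, adjusted p = 0.298). Its partners Aimp1 (-0.018) and Eef1e1 (0.025) lay near 0. Of 7 tested mitochondrial charging partners 0 were called. The smallest p-values belonged to Gatb, a subunit of the amidotransferase that completes glutamine tRNA (0.339, adjusted p = 0.363), and to the elongation factor Tsfm (0.268, adjusted p = 0.575).

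Of 7 tested proofreading and selenocysteine genes 0 were called, with Sephs2 (0.214, adjusted p = 0.552) and Pstk (0.232, adjusted p = 0.572), both of the selenocysteine route, first by p. Of 15 tRNA processing and export genes 0 were called and 12 were below 0, against 52.4% of all genes below 0. Within replicates 1 and 2, 7 of the 15 were below 0, and within replicates 3 and 4 it was 11. Over all genes these shares were 46.4% and 56.7%. Elac2, the nuclease that trims tRNA 3′ ends, read 7.37, 7.20, 7.44 and 7.36 in WT and 7.10, 6.77, 6.94 and 7.15 in RaptorKO. Its groups did not overlap and the difference was -0.352 (SE 0.11, adjusted p = 0.162), with -0.35 and -0.36 in the replicate sets. Tsen15, a subunit of the tRNA splicing nuclease, differed by -0.34 (adjusted p = 0.468). Among 18 genes of RNA polymerase III, which transcribes tRNA genes, and its regulator Maf1, 0 were called. Its subunits Polr3k (-0.321, adjusted p = 0.282) and Polr3c (-0.293, adjusted p = 0.311) had the smallest p-values, and Maf1 differed by -0.007. At an unadjusted p under 0.05 the scaffolds had 1 gene lower, the mitochondrial partners 1 higher, the processing genes 1 lower, the polymerase genes 1 higher and 2 lower, and the proofreading genes 0. Over all genes 7.49% were lower and 5.55% higher at that level.

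Of the 13 tested genes of uncharged tRNA sensing and the ATF4 response, 1 fell and 0 rose, where 1.96% of all genes were called. Psat1, a serine synthesis enzyme known as an ATF4 target, fell by 0.604 (SE 0.12, adjusted p = 0.0304). It read 8.26, 8.14, 8.07 and 8.07 in WT and 7.70, 7.77, 7.29 and 7.38 in RaptorKO, with no overlap. The call was lost without any 1 of the WT arrays (adjusted p from 0.0715 to 0.105), without RaptorKO 3 (0.0737) or without RaptorKO 4 (0.0854). Atf4 itself differed by -0.04 (SE 0.11, adjusted p = 0.936), and Eif2ak4, which encodes Gcn2, by 0.249 (adjusted p = 0.526). At an unadjusted p under 0.05 the list had 3 genes lower and 1 higher of 13, against 7.49% and 5.55% of all genes. Besides Psat1 the lower ones were Sesn2, a stress-induced inhibitor of mTORC1 (-0.436, adjusted p = 0.134, groups without overlap), and Ddit4, another such inhibitor (-0.644, adjusted p = 0.244). The higher one was Ddit3, a transcription factor of this response (0.284, adjusted p = 0.204, groups without overlap). Asns, Trib3, Chac1, Atf3, Nupr1 and Slc7a11 were too dim to test.

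Rptor, the targeted gene, read 6.83, 6.85, 7.03 and 6.75 in WT and 6.63, 6.47, 6.50 and 6.95 in RaptorKO, a difference of -0.225 (adjusted p = 0.491). On a dimmer probe set every RaptorKO array (5.37 to 5.74) was below every WT array (5.89 to 6.14). Whether either probe set covers the deleted part is not known. The sorted cells carried the markers of their label: Foxp3 read 10.79 to 10.96 in WT and 10.96 to 11.04 in RaptorKO, and the mean log2 value of 8 regulatory T cell markers was 10.43 to 10.57 and 10.41 to 10.58. Of these 8 markers, 4 were higher and 4 lower in RaptorKO. Groups did not overlap for Ctla4 (-0.316) and Cd4 (-0.218), both lower, and for Ikzf2 (0.213), which was higher. Over all genes 5.09% did not overlap with RaptorKO lower and 3.73% with RaptorKO higher. Conventional CD4 T cell markers were lower in RaptorKO in 5 of 5 found, of 8 named (list mean 9.16 to 9.38 in WT and 9.07 to 9.22 in RaptorKO). Of the 5, Bcl2 (-0.003) and Satb1 (-0.037) lay near 0. Cd40lg and Dgka had an unadjusted p under 0.05 in limma, against 7.49% of all genes lower at that level. Myeloid markers were higher in 5 of 5 tested (4.51 to 5.18 and 4.95 to 5.47, 9 genes), with Itgam, Adgre1, Cd14 and Itgax below the filter. The ranges were 5.06 to 6.08 and 5.17 to 5.66 for CD8 T and NK cell markers, 5.22 to 6.57 and 5.82 to 6.34 for B cells, 5.98 to 6.39 and 6.05 to 6.19 for plasma cells, and 6.04 to 7.17 and 6.84 to 7.25 for erythroid cells. Of these, WT 2, the low WT array for the cytosolic synthetases, had the highest mean of the 8 arrays for CD8 T and NK cell markers (6.08) and for B cell markers (6.57). Cd8a and Cd8b1 had lower means in RaptorKO (-1.034, adjusted p = 0.341, and -0.766, adjusted p = 0.103). The other tested genes of that list, Gzma (0.279) and Eomes (0.073), had higher means. Of the erythroid genes, Hba-a1 was higher in RaptorKO (1.105, limma, adjusted p = 0.159) and Alas2 differed by -0.079. No tested member of these lists was called. Their part in the values of the synthetases was not tested, and in sorted bulk cells fewer cells of a type and less RNA per cell cannot be told apart.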

How the data were processed

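RNA from 4 WT and 4 RaptorKO samples was hybridised to 1 array each. The authors deposited log2 intensities per probe set made with RMA, per the submitters' processing notes; version and genome build are not given in the sources used here. RMA as usually run sets the arrays to 1 distribution, which removes differences in total signal; array medians were 5.21 to 5.29. Of 45141 probe sets, 28898 name 1 gene, 551 name several and 15692 name none in the platform annotation; 28689 were matched to RefSeq symbols through Entrez identifiers (Mars is listed there as Mars1). The brightest probe set stood for each gene and was tested if above the 40th percentile of its array on at least 4 arrays.

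RaptorKO was compared with WT by limma 3.58.1 in R 4.3.3 (lmFit, eBayes, no covariates), checked on simulated data. Replicate numbers come from the titles, and the fit without pairing was used. Values on each array are given for the 8 cytosolic and 5 mitochondrial members with the smallest p, Qars, Kars and Rptor; of other lists, called members or the 2 with the smallest p. Other genes of those lists (Aimp1, Eef1e1, Maf1, Atf4, Eif2ak4, Ddit3, Sesn2, Ddit4, Cd8a, Cd8b1) were added for their roles or after their values were seen. The same holds for the further markers named (Foxp3, Ctla4, Cd4, Ikzf2, Cd40lg, Dgka, Satb1, Bcl2, Eomes, Gzma, Hba-a1, Alas2). The members, lists and tests were chosen with earlier results of these data known. Alternatives were the mean of probe sets, all probe sets, a filter at the 60th percentile or none, quantile normalization, array centring (median or 75th percentile), intensity trend, robust variance, array weights, each array left out, a replicate block, a term for the replicate sets and fits within them. Plots used matplotlib 3.10.9 under Python 3.11.15. The number of arrays limits the precision.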

Additional observations from a re-analysis of the deposited data

Results flagged for a closer look

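Within a group of 4 arrays, 1 array stood apart from the other 3 by Dixon's test at the 95% level in 3 of 62 groups of synthetase values, where chance gives about 3.1. Eprs read 8.05 on WT 2, against 8.57 to 8.64 on the other WT arrays. Farsb read 7.65 on WT 4, against 7.23 to 7.29. Kars read 7.69 on RaptorKO 2, against 7.18 to 7.21.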

How the results depend on the processing

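The count of called synthetases was 0 in limma as reported and ranged from 0 to 1 when each array was left out in turn; it was 1 without WT 2 (Wars) and 1 without RaptorKO 2 (Aars), and 0 in each of the other alternatives. The interaction with the replicate sets called 0 members in all 18 alternatives. With an array left out the median difference ranged from -0.134 to 0.029 for the cytosolic genes and from -0.008 to 0.073 for the mitochondrial genes. Within replicates 1 and 2 the medians were 0.083 and 0.102, and within replicates 3 and 4 they were -0.195 and -0.007; the cause was not tested. Of the 15 members with values on each array, Qars changed sign in 5 alternatives; Eprs, Kars and Lars2 did so within replicates 1 and 2, and Fars2 within replicates 3 and 4. Over the 22 alternatives Aars ranged from -0.86 to -0.18 (adjusted p 0.0313 to 0.714), Wars from -0.60 to -0.19 (0.04 to 0.742) and Hars from -0.37 to -0.11 (0.212 to 0.81). Over all genes the count of calls, 224 as reported, was between 101 and 152 without any 1 WT array, 370 with an intensity trend and 9 within replicates 1 and 2. Same-numbered arrays deviated with correlations of 0.157, -0.153, 0.106 and 0.0259, so the numbers were not taken as pairs; the replicate block called 0 synthetases and 175 genes, with medians of -0.042 and 0.039. Wars2 and Fars2 were not tested with the 60th percentile filter.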
